A study of Mus musculus with 9 samples.

Results

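The Notch receptors Notch1, Notch2 and Notch3, their ligands Dll1, Jag1 and Jag2, and the Hes/Hey genes Hes1, Hes6, Hey1 and Heyl were followed across the array series. They are 10 of the 19938 genes that the array annotation gives to a transcript cluster under 1 symbol, and each of them has 1 such cluster, the array's unit for a gene. The samples came from the stromal vascular fraction (SVF) of subcutaneous fat of C57BL/6J mice aged 10 weeks, grown in minimal medium without any inducing treatment. On day 28, hand-picked colonies of contracting cells formed the beating group (n = 4) and the other cells of the same dishes formed the non-beating group (n = 4). A further array holds a pool of 6 round cells picked by a robot on day 14, with no replicate. The groups thus share strain, age, tissue and medium, and the 2 day 28 groups differ in which cells were picked. The methods also name 1 RNA kit for the picked colonies and another for unselected cells. Kit and cell choice therefore cannot be told apart in the day 28 comparison. A beating sample joined the colonies of several dishes of 1 lot of SVF, and hand picking can carry neighbouring cells along. Whether each of the 4 samples has a lot of its own is not given in the sources used here, and p-values then measure only the spread between these samples.

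Notch receptors are membrane proteins that are cut after they bind a ligand on a neighbouring cell. The released intracellular part enters the nucleus, joins Rbpj and a Mastermind protein, and switches on genes of the Hes and Hey families, which encode repressors of the basic helix-loop-helix type. In mouse skeletal muscle the pathway is known for holding satellite cells undifferentiated, and in vessels for its part in endothelial and mural cells. Hes6 stands apart in its family, since in mouse it is known as an antagonist of Hes1 that favours muscle differentiation.

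Of the 10 genes, Hes1 and Hes6 were higher in the beating than in the non-beating group, none was lower, and the other 8 did not pass the test (limma, two-sided, at a threshold of 0.05 on p-values adjusted by Benjamini-Hochberg across the 33323 clusters). Over all genes of 1 symbol, 2.84% were called higher and 4.11% lower, 6.95% in all, and over all clusters 2.82%, 3.34% and 6.16%. Of all clusters 940 were called higher and 1114 lower, and 837 and 1617 after median centring of the arrays. Hes6 was 1.42-fold and Hes1 1.52-fold higher. No receptor and no ligand was called in either direction. In the beating and non-beating samples fewer cells of a type and less RNA per cell cannot be told apart.

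The values are log2 signals, and array medians lay between 3.08 and 3.17 in the 8 arrays of day 28 and at 3.54 in the round pool. A log2 difference of 1 is a doubling of signal, and a signal includes background, so that the folds of dim genes are not ratios of transcripts. Of 8 skeletal myocyte markers, 7 were higher in the beating group and the mean level of the list lay between 8.77 and 9.15 against 4.13 and 4.70. Of 11 cardiomyocyte markers, Myh6 and Myl2 were higher, Tbx5 was lower and the remaining 8 were not called. Myl2, the most changed of the list, had means of 7.43 in the beating and 2.59 in the non-beating group, a difference of 4.84 (adjusted p = 5.42e-05). Myh6 was dim, below the array medians on all 8 arrays, with means of 2.77 and 2.36. The atrial peptide gene Nppa, had a mean of 2.84 ± 0.065 in the beating and of 2.73 ± 0.065 in the non-beating group (SD, n = 4 each), below the array medians. Beating replicate 1 had the lowest mean level of vascular markers, and its values are given beside the genes they touch.

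**Figure D1:**
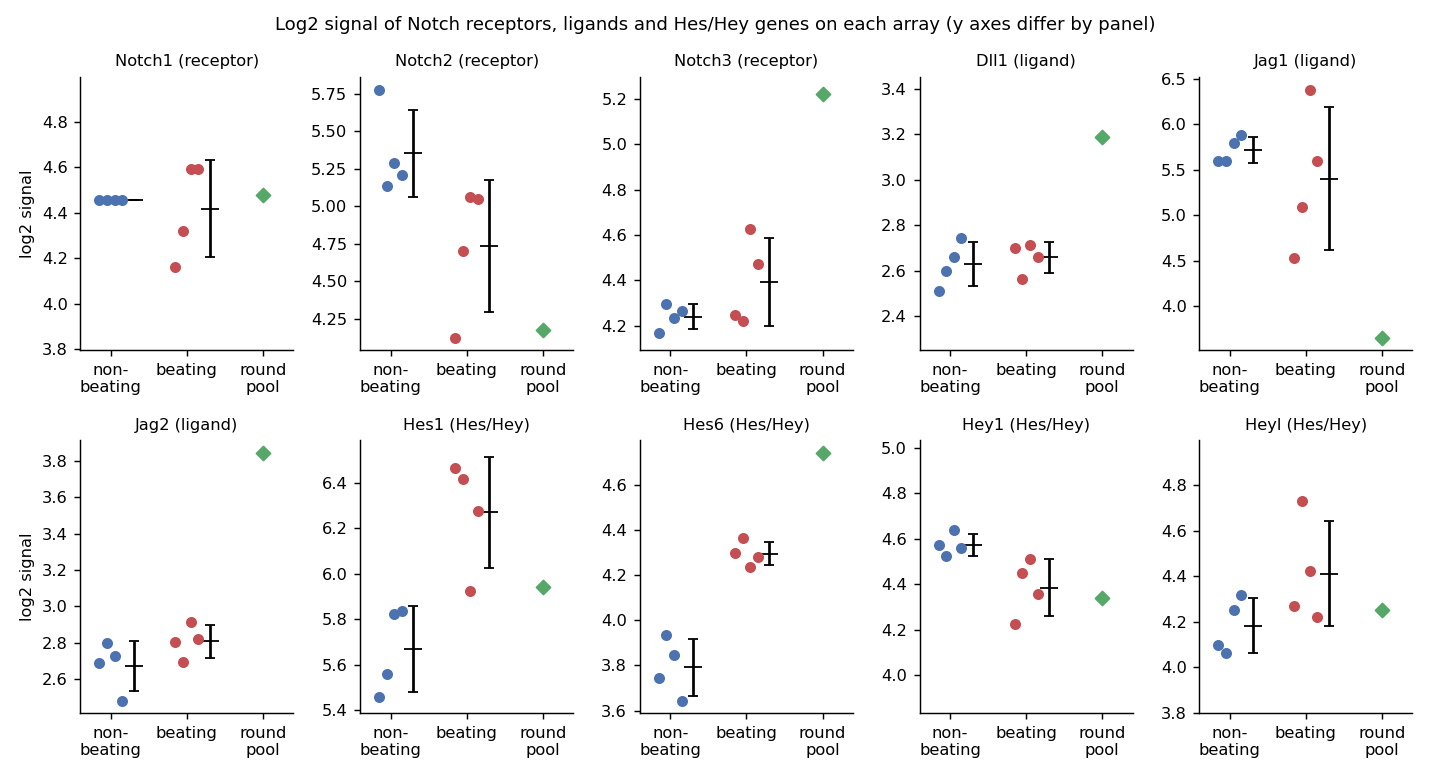
Log2 signal of each of the 10 genes in the non-beating (n = 4, blue), beating (n = 4, red) and round (1 pool, green diamond) samples, 1 panel per gene with its own y axis. Points are arrays in the order of their replicate numbers. Black bars show the mean with 1 SD on either side. For Hes1 and Hes6 the red points all lie above the blue points.

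The question for the receptors was whether the cells that beat differ in them from the cells around them. Notch2, a widely expressed receptor, had log2 signals of 4.13, 4.70, 5.06 and 5.05 in beating replicates 1 to 4 and of 5.78, 5.13, 5.29 and 5.21 in non-beating replicates 1 to 4. All 4 beating arrays were below all 4 non-beating arrays, but the closest values of the groups were only 0.073 apart. The difference was -0.62 (standard error 0.23, 95% interval -1.15 to -0.080) and did not pass the test (adjusted p = 0.178). It was -0.41 without beating replicate 1, the lowest array, and -0.47 without non-beating replicate 1, the highest.

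Notch1, the receptor best known from T cells and endothelium, was at 4.16, 4.32, 4.59 and 4.59 in the beating arrays. It had the same value, 4.46, on all 4 non-beating arrays. Such ties occur in this table at 179 genes (0.898%) in the non-beating and 110 genes (0.552%) in the beating group, and the SD of 0 is therefore not a measure of biological spread. The beating arrays lay on both sides of that value, with a difference of -0.039 (95% interval -0.28 to 0.20, adjusted p = 0.875). Its sign turned to 0.046 without beating replicate 1.

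Notch3, the receptor of vascular smooth muscle and pericytes, was at 4.25, 4.22, 4.63 and 4.47 in the beating and 4.17, 4.30, 4.23 and 4.26 in the non-beating arrays. Beating replicates 3 and 4 were above all non-beating arrays and replicates 1 and 2 lay among them. The difference was 0.15 (95% interval -0.073 to 0.38, adjusted p = 0.438). It fell to 0.075 without beating replicate 3, the highest array.

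Among the ligands, Jag1 varied most between beating arrays. Jag1, the ligand that is known for its part in heart and vessel development, was at 4.53, 5.09, 6.38 and 5.60 in the beating arrays and at 5.60, 5.60, 5.79 and 5.89 in the non-beating arrays. Beating replicate 3 was above and replicates 1 and 2 were below all non-beating arrays, so that the groups overlap. The SD was 0.79 in the beating and 0.14 in the non-beating group. The difference was -0.32 (95% interval -1.12 to 0.49, adjusted p = 0.674). It was -0.028 without beating replicate 1 and -0.65 without beating replicate 3, and the interval allows changes in both directions.

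Dll1 and Jag2 were dim. Both lay below the array medians on all 8 arrays, so these values limit what can be said of their transcripts. Dll1, a ligand known to act in satellite cells, was at 2.70, 2.56, 2.71 and 2.66 in the beating and 2.51, 2.60, 2.66 and 2.74 in the non-beating arrays. The difference was 0.030 (95% interval -0.13 to 0.19, adjusted p = 0.852), and its sign turned to -0.027 after median centring of the arrays. Jag2, a second Serrate-type ligand, was at 2.81, 2.69, 2.91 and 2.82 in the beating and 2.69, 2.80, 2.73 and 2.48 in the non-beating arrays. Beating replicates 1, 3 and 4 lay above all non-beating arrays, and the difference was 0.13 (95% interval -0.062 to 0.33, adjusted p = 0.432). It was 0.069 without non-beating replicate 4, the lowest array.

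The Hes/Hey genes held both called members. Hes6 was at 4.30, 4.36, 4.24 and 4.28 in the beating arrays and at 3.74, 3.94, 3.85 and 3.64 in the non-beating arrays. The groups did not overlap, and the lowest beating array lay 0.30 above the highest non-beating array. The mean was 4.30 ± 0.053 against 3.79 ± 0.13 (SD, n = 4 each), a difference of 0.50 (standard error 0.075, 95% interval 0.33 to 0.68, adjusted p = 0.00833). The call was kept in all 15 alternatives in which Hes6 was tested, with an adjusted p between 0.00675 and 0.0368. The fold cannot be read as a ratio of transcripts, since the signal includes background.

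The promoter windows of Hes6 are shown because its call was kept in each alternative in which it was tested. They come from RefSeq on GRCm38.p6 and run from 250 bases before to 50 after a start. Windows were matched for 7 of the 10 genes, all but Hes1, Hey1 and Heyl, and some genes have several starts, which gives 9 windows. Capitals mark CANNTG, the E-box that basic helix-loop-helix factors can bind, which reads the same on both strands. The upstream Hes6 window is chr1:91413989-91414288 and the downstream Hes6 window is chr1:91413173-91413472, both on the minus strand. The Jag1 window, chr2:137116471-137116770 on the minus strand, is shown as that of a member that did not pass the test.
Hes6 upstream start: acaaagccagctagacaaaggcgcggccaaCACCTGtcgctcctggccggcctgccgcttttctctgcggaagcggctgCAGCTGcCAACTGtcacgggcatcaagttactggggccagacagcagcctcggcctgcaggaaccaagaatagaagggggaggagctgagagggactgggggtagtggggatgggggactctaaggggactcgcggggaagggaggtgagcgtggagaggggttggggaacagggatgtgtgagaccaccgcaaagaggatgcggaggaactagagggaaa
Hes6 downstream start: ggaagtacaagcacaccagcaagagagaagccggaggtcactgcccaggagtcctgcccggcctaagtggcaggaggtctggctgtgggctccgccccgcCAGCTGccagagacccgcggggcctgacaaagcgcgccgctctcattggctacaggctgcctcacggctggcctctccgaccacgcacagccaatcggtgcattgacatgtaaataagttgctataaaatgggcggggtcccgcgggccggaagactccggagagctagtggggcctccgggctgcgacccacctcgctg
Jag1: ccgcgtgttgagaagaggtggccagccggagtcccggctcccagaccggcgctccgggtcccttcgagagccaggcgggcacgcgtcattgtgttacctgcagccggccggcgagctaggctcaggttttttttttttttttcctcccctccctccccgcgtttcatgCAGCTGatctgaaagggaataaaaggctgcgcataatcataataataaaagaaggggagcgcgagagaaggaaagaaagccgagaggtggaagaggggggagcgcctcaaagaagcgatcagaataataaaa
The upstream Hes6 window holds 3 E-boxes, the downstream window 1 and the Jag1 window 1. Each of these 3 windows has 1 E-box of the form CAGCTG, which was counted within CANNTG too. Over the members, CAGCTG was found in 4 of 9 windows, of the genes Hes6, Jag1 and Dll1, and in 16.3% of 32851 promoter windows of the same length. CANNTG was found in 5 of the 9 windows and in 72.3% of all. TGGGAA, the core letters bound by Rbpj, searched on both strands, was found in none of the 9 windows and in 25.6% of all. These are matches of letters and not binding sites.

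Hes1, the repressor best known as a direct Notch target, was at 6.47, 6.41, 5.92 and 6.28 in the beating arrays and at 5.46, 5.56, 5.82 and 5.84 in the non-beating arrays. The groups did not overlap, but beating replicate 3 lay only 0.085 above the highest non-beating array. The mean was 6.27 ± 0.25 against 5.67 ± 0.19 (SD, n = 4 each), a difference of 0.60 (standard error 0.14, 95% interval 0.27 to 0.93). Its adjusted p of 0.0483 lay close to the threshold. The direction held in all 17 alternatives, but the call held in 3 of 16 with an adjusted p, which ranged from 0.0199 to 0.143. It was lost without each array in turn except beating replicate 3. The adjusted p was 0.0976, 0.115 and 0.0878 without beating replicates 1, 2 and 4, and 0.118, 0.135, 0.0842 and 0.0707 without non-beating replicates 1 to 4.

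Hey1, a repressor of the Hes-related family known from endothelium, was at 4.22, 4.45, 4.51 and 4.36 in the beating and 4.57, 4.52, 4.64 and 4.56 in the non-beating arrays. All 4 beating arrays were below all 4 non-beating arrays, by a gap of 0.013. The difference was -0.19 (standard error 0.073, 95% interval -0.36 to -0.020) and did not pass the test (adjusted p = 0.19). Heyl, a related repressor known from mural cells and satellite cells, was at 4.27, 4.73, 4.42 and 4.22 in the beating and 4.10, 4.06, 4.25 and 4.32 in the non-beating arrays. Beating replicates 2 and 3 were above all non-beating arrays and the groups overlap. The difference was 0.23 (95% interval -0.052 to 0.51, adjusted p = 0.343), and it was 0.12 without beating replicate 2.

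**Figure D2:**
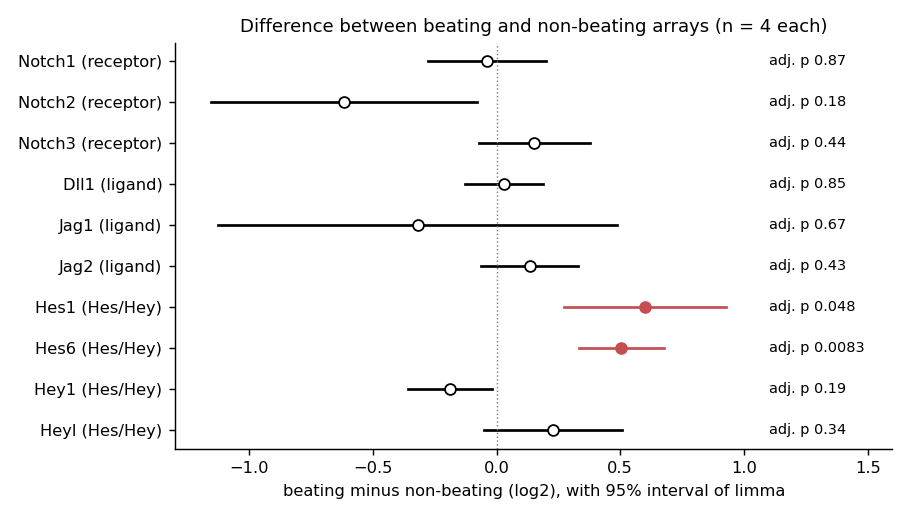
Difference between the beating and non-beating means (log2, x axis) for each of the 10 genes, with the 95% interval of limma as a line and the adjusted p at right (n = 4 arrays each). Filled red points passed the test. Hes1 and Hes6 lie at 0.60 and 0.50, and the interval of Jag1, from -1.12 to 0.49, is the widest.

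By role, the median difference was -0.039 over the 3 receptors, 0.030 over the 3 ligands and 0.37 over the 4 Hes/Hey genes, and -0.010 over all genes of 1 symbol. The groups did not overlap for 4 of the 10, Hes1 and Hes6 upward and Notch2 and Hey1 downward, whereas they did not overlap for 15.9% of all genes (5.76% upward and 10.2% downward). Hes1 and Hes6 were called higher, Heyl had a positive difference that did not pass and Hey1 a negative difference that did not pass.

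The genes whose pattern was most like that of Hes1 over the 8 arrays were Naa30, Kremen1 and Naa50, with Pearson's r of 0.993, 0.985 and 0.983. Naa30 and Naa50 encode subunits that acetylate the N terminus of proteins, and Kremen1 a receptor for Dickkopf proteins. Kremen1 was higher in the beating group by 0.49 (adjusted p = 0.0447), and Naa30 and Naa50 had differences of 0.34 and 0.25 that did not pass the test (adjusted p = 0.0544 and 0.0900). The 8 points of each r share the 2 groups, so that any gene that separates the groups scores high.

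The other genes of the pathway were taken from a list of 55, of which 53 were analysed. Of these, Neurl1a was higher, Adam17 and Maml2 were lower, and for 50 no change was called. At the same adjusted threshold 2.84% of all genes of 1 symbol were called higher and 4.11% lower, 6.95% in all. The median difference of the 53 was -0.12. An unadjusted p under 0.05 was reached by 13 genes with a lower and 4 with a higher value in the beating group, which are 17 of 53. Over all 19938 genes 14.7% were lower and 8.04% higher at that level, 22.8% in all. Among the 10 Notch genes, Hes1 and Hes6 were higher and Notch2 and Hey1 lower at it. The called genes act at different steps.

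Neurl1a, a ubiquitin ligase of the Neuralized family, which acts on Notch ligands, was at 4.65, 4.92, 5.05 and 4.83 in the beating and 4.01, 4.11, 4.33 and 3.67 in the non-beating arrays. The groups did not overlap and the difference was 0.83, or 1.78-fold (standard error 0.15, adjusted p = 0.0169). The call was lost without non-beating replicate 1 (adjusted p = 0.053) and with the methods' t-test (adjusted p = 0.0643). Fbxw7, a ubiquitin ligase subunit that marks the intracellular part of Notch for degradation, had the largest difference of the list, 1.14, and was singled out after its values were seen. It was at 8.97, 8.52, 7.88 and 7.57 in the beating and 7.03, 6.94, 7.09 and 7.34 in the non-beating arrays, without overlap (adjusted p = 0.059). A second, dimmer Fbxw7 cluster differed by 0.58 and passed the test (adjusted p = 0.0283).

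Adam17, a protease that can cut Notch at the cell surface, was at 6.03, 5.89, 6.23 and 6.29 in the beating and 6.53, 6.54, 6.46 and 6.65 in the non-beating arrays. All beating arrays were lower and the difference was -0.43 (standard error 0.098, adjusted p = 0.0412). This call was lost without each array in turn except beating replicate 4, at an adjusted p of 0.0854, 0.0692 and 0.0527 without beating replicates 1 to 3 and of 0.0976, 0.107, 0.0825 and 0.101 without non-beating replicates 1 to 4.

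Maml2, a Mastermind coactivator, was at 5.43, 5.997, 5.71 and 5.84 in the beating and 6.18, 6.26, 6.43 and 6.51 in the non-beating arrays. The groups did not overlap and the difference was -0.60 (standard error 0.13, adjusted p = 0.0371). The call was kept without beating replicates 1 and 2. It was lost without beating replicates 3 and 4 (adjusted p = 0.0793 and 0.0587) and without non-beating replicates 1 to 4 (adjusted p = 0.0589, 0.0869, 0.104 and 0.092). A second Maml2 cluster, close to the array medians, differed by -0.12 (adjusted p = 0.601). Rbpj, the DNA-binding partner of the cut receptor, was at 6.87 ± 0.22 and 7.29 ± 0.13 (SD, n = 4 each), a difference of -0.42 that did not pass the test (adjusted p = 0.085).

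The remaining steps gave no call. Of the 6 other receptors and ligands, which include Notch4, Dll4 and the atypical ligand Dlk1, none passed the test. Of the 7 other targets, which include Hes5, Hey2 and Nrarp, none passed the test, nor did any of the 6 genes of receptor glycosylation, which include the fringe genes Lfng, Mfng and Rfng. Of the 9 cleavage genes analysed 8 had a negative difference, of 14 nuclear genes 9 and of 11 genes of trafficking and ubiquitin ligation 9, against 10532 of all 19938 genes. The median differences were -0.20, -0.26 and -0.14. Beating replicate 1 had the lowest value of the 8 arrays in 18 of the 53 genes (34%), against 18.8% of all genes. The part of that array in these medians was not tested.

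**Figure D3:**
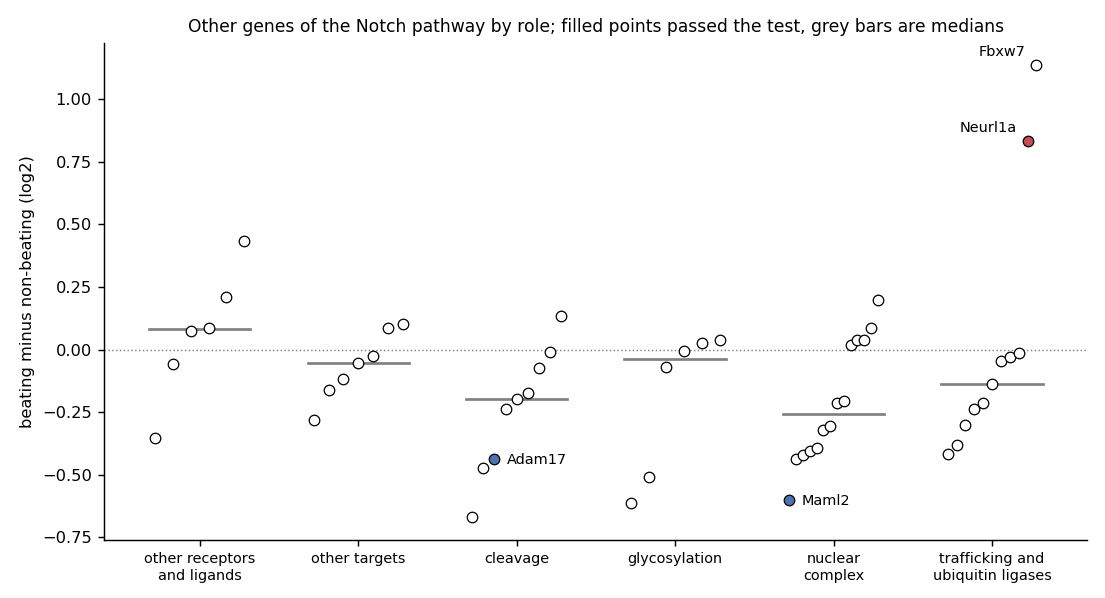
Difference between the beating and non-beating means (log2, y axis) of the 53 other pathway genes, grouped by role and ordered by value within a role. Points are genes, filled where they passed the test (red higher, blue lower), and grey bars are the medians. Neurl1a at 0.83, Adam17 at -0.43 and Maml2 at -0.60 are the called genes, and Fbxw7 at 1.14 is named as the largest.

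The beating arrays also differed from each other in vascular markers. The mean level of 10 endothelial markers was 3.61, 4.61, 5.01 and 5.27 in beating replicates 1 to 4, and 4.79, 4.44, 4.82 and 5.39 in non-beating replicates 1 to 4. Beating replicate 1 was the lowest of the 8 arrays in this list. It was also the lowest in 4 of the 10 Notch genes, Notch1, Notch2, Jag1 and Hey1, and in 18.8% of all genes. Cdh5, the endothelial cadherin, was at 4.15 in that array against 6.61 to 8.37 in the other 7. Pecam1, Emcn, Erg, Esam and Vwf were lowest in beating replicate 1 too. Tek, Tie1, Kdr and Cldn5 were lowest in beating replicate 2 instead. The mean level of 9 mural markers was 5.54, 5.92, 6.25 and 6.34 in the beating and 5.84, 5.99, 6.12 and 6.25 in the non-beating arrays. None of the 10 endothelial markers passed the test. Of the 9 mural markers only Abcc9 passed it, and Abcc9 was higher in the beating group. The difference was negative for 7 of the 9 mural markers and positive for 2, with a median of -0.20. The part of these cells in the values of these 4 genes was not tested.

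**Figure D4:**
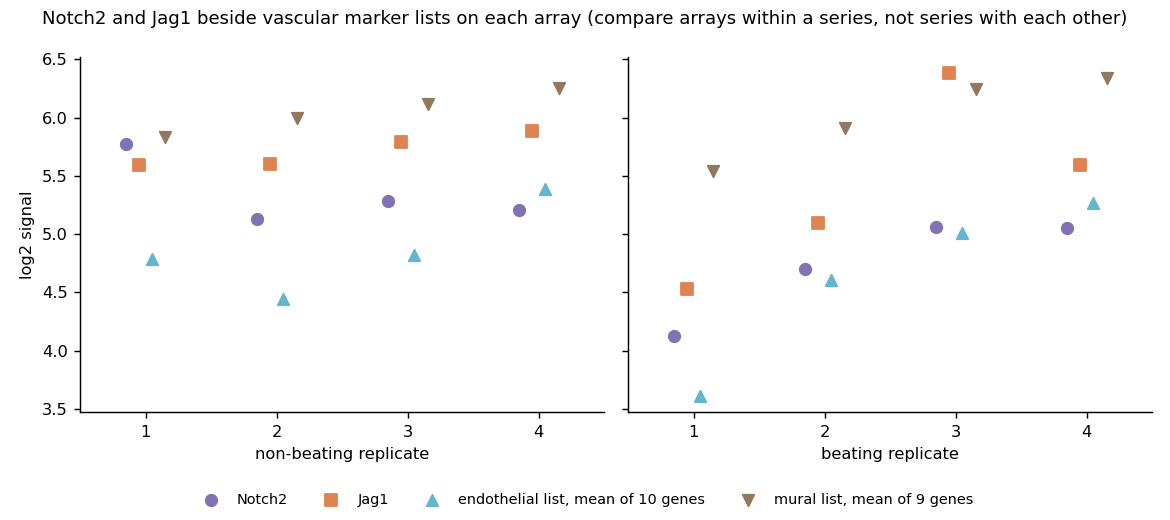
Log2 signal (y axis) of Notch2 and Jag1 and the mean log2 signal of 10 endothelial and 9 mural markers on each non-beating (left) and beating (right) array by replicate number (x axis). Each point is 1 array, and replicate numbers have no order. Beating replicate 1 is the lowest array in Notch2, Jag1 and both lists.

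Markers of further cell types were listed in the same way. The mean level of 10 macrophage markers lay between 3.25 and 4.98 in the beating and between 4.96 and 6.44 in the non-beating arrays, and none of them passed the test. The mean of 7 fibroblast markers lay between 6.94 and 7.21 against 7.76 and 8.37, with 3 lower. The mean of 7 adipocyte markers lay between 4.20 and 4.61 against 5.14 and 5.45, with 3 lower. The mean of 10 satellite cell markers lay between 3.48 and 3.65 against 3.12 and 3.20. Cdh15 and Itga7 were higher and the other 8 were not called. Of the 10, 8 had a positive and 2 a negative difference, among the latter Pax3 at -0.36 (adjusted p = 0.178). Pax7, the defining factor of satellite cells, was at 3.32 ± 0.20 and 3.19 ± 0.12 (SD, n = 4 each). Of 5 Schwann cell markers 3 were analysed. Erbb3 was higher, whereas Sox10 and S100b had differences of -0.42 and -0.32 that did not pass the test. None of 6 epithelial markers passed the test. The part of these cells in the calls of Hes1 and Hes6 was not tested.

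The round pool has no replicate, so its values are a description. Day of culture, picking method and amount of input set it apart from the groups and cannot be told apart from the cell type. Over all genes of 1 symbol it was above all 8 other arrays in 45.8% and below all 8 in 28.2%. The direction of this shift followed the level of the gene. When genes were ranked by their mean over the other 8 arrays and divided into 4 classes of equal size, the median of the round value minus the non-beating mean was 0.41, 0.57, -0.038 and -1.58 from the dimmest to the brightest class. Of the 10 Notch genes, 4 were above all 8 arrays and 1 was below, and their median shift was 0.17, as was that of all genes. After quantile normalisation of the 9 arrays these medians were 0.27 and -0.0092, and after median centring both were -0.28.

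Among the receptors, Notch3 was at 5.22 in the round pool, 0.98 above the non-beating mean and above all 8 arrays. Notch2 was at 4.18, -1.18 from the non-beating mean and within the range of the beating arrays as deposited, but below all 8 arrays after median centring. Both belong to the third class, whose median shift was -0.038 and in which 30.3% of genes lay above all 8 arrays. Notch1 was at 4.48, 0.019 from the non-beating mean, and at -0.43 from it after median centring.

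Among the ligands, Jag2 was at 3.84, 1.17 above the non-beating mean, and Dll1 at 3.19, 0.56 above it. Both lay above all 8 arrays, as did 70.6% of genes of their class, the second. After quantile normalisation of the 9 arrays the difference of Dll1 was 0.043 and that of Jag2 0.87. Jag1 was at 3.65, -2.07 from the non-beating mean and below all 8 arrays, as were 80.2% of the genes of its class, the brightest.

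Among the Hes/Hey genes, Hes6 was at 4.74, 0.95 above the non-beating and 0.45 above the beating mean, and above all 8 arrays as deposited. After median centring it was 0.50 above the non-beating and 0.050 above the beating mean and no longer above all 8. Hes1 was at 5.94, between the group means, 0.27 above the non-beating and -0.33 from the beating mean. As deposited, Hes1 in the pool lay within the range of the beating arrays. It belongs to the brightest class, whose median shift was -1.58. Its difference from the non-beating mean was -0.18 after median centring and 1.38 after quantile normalisation. Hey1 was at 4.34 and Heyl at 4.25, -0.23 and 0.069 from the non-beating mean. The value of Heyl turned to -0.38 after median centring.

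**Figure D5:**
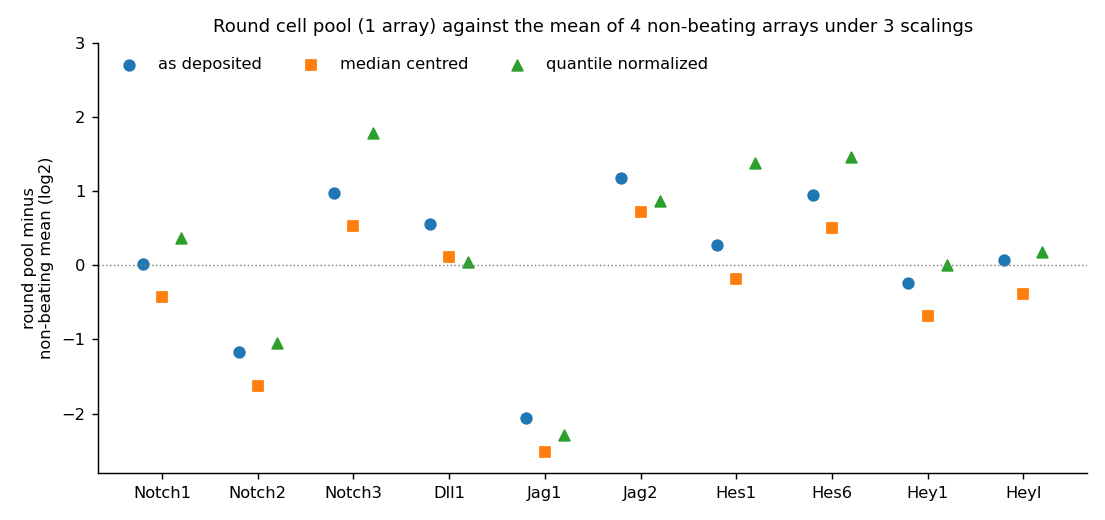
Log2 signal of the round pool (1 array of 6 cells) minus the mean of 4 non-beating arrays (y axis) for each gene (x axis), as deposited (circles), after median centring (squares) and after quantile normalisation (triangles) of the 9 arrays. Notch3, Dll1, Jag2 and Hes6 are above 0 and Notch2, Jag1 and Hey1 below 0 under all 3 scalings, Hey1 by only -0.0012 after quantile normalisation. Notch1, Hes1 and Heyl change sign with the scaling.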

How the data were processed

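Amplified RNA of 4 beating, 4 non-beating and 1 round sample was hybridised, each to 1 Affymetrix Mouse Gene 1.0 ST array. The deposited values are log2 signals; per the methods the authors log2-scaled, normalised and mean-centred the data in BRB-ArrayTools, and the step that made this table is not given in the sources used here. The values were used as deposited. Of 33323 clusters, 21789 carry 1 symbol, updated through the gene number to GRCm38.p6 names for 21698; a gene with several is represented by the cluster of highest mean over the 8 arrays, which gives 19938 genes. The difference between the day 28 groups was fitted with limma (version 3.58.1, R version 4.3.3; functions lmFit and eBayes), and two-sided p-values were adjusted by Benjamini-Hochberg across the clusters with a threshold of 0.05. The fit was tested on simulated data. A 95% interval is that of limma. Precision is limited by the number of arrays.

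The genes and lists were chosen with earlier results of these data known. All 10 genes are given on every array; of other pathway genes each called one is named, and of marker lists counts and mean log2 levels; likeness is Pearson's r over 8 arrays. Some genes of the lists are not reported here. Proteins were not used here. As alternatives, other normalisations, filters and variance models, weights per array, the methods' t-test, the replicate number as a block, another cluster per gene and the omission of single arrays were tried. The fit did not pair the samples. Beating and non-beating cells came from the same dishes, but the methods do not link replicate numbers to dishes, so the pairs are not known. Deviations of same-numbered samples from their group means correlated at -0.012, 0.028, -0.0094 and 0.020. These correlations cannot show whether samples with other numbers share dishes.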

Additional observations from a re-analysis of the deposited data

Results flagged for a closer look

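The round pool is the only array outside the tested comparison. Among the 10 Notch genes, Notch3, Jag2 and Hes6 were above all 4 non-beating arrays in it as deposited, after median centring and after quantile normalisation. Notch3 was at 5.22 against at most 4.30 in the non-beating arrays, Jag2 at 3.84 against at most 2.80 and Hes6 at 4.74 against at most 3.94. These are values of 1 pool of 6 cells, without replicate. The same held for 27.2% of all genes, so 3 of 10 is near the share over all genes. No array lay far enough from the others of its group to be marked by Dixon's ratio at the 95% level in any of the 19 groups of 4 values of these genes that could be tested; the non-beating values of Notch1, which are identical, could not.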

How the results depend on the processing

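Hes6 kept its direction and call in all 15 alternatives. Hes1 kept its direction in 17, and its call with quantile normalisation, with dim clusters left out and without beating replicate 3. The number of members called higher, 2 as reported, was therefore 1 with median centring, an intensity trend, array weights, the methods' t-test after adjustment and a replicate block, 0 with the 1.5-fold prefilter, which removes Hes6, and with the methods' unadjusted threshold, and 1 to 2 without each array in turn. No member was called lower in any setting; 2 had a lower value at an unadjusted p under 0.05 by limma. With replicate number as a block the adjusted p was 0.143 for Hes1 and 0.0368 for Hes6. That fit rests on shared numbers only, and it lowered all clusters called lower from 1114 to 645.

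Other pathway genes called higher, 1 as reported, were 2 with dim clusters left out, with the 1.5-fold prefilter and with the cluster of lowest mean, and 0 with both forms of the methods' t-test. Those called lower, 2 as reported, were 3 with median centring, 1 with quantile normalisation, an intensity trend and the cluster of lowest mean, and 0 with the 1.5-fold prefilter, both forms of the methods' t-test and a replicate block. Without each array they ranged from 0 to 2 and from 0 to 3. All clusters called higher and lower, 940 and 1114, were 837 and 1617 with median centring, 1078 and 1594 with dim clusters left out, 491 and 375 with the methods' t-test after adjustment, 195 and 26 at its unadjusted threshold, and 569 to 914 and 438 to 1023 without each array. The cause of these changes was not tested.

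Signs turned for Notch1 (0.028 with array weights, -0.098 to 0.046 without each array, positive without beating replicate 1) and Dll1 (-0.027 with median centring, -0.020 with quantile normalisation, -0.0081 to 0.068 without each array, negative without non-beating replicate 1). In the round pool median centring turned Notch1 to -0.43, Hes1 to -0.18 and Heyl to -0.38 from the non-beating mean. The signals of Dll1 and Jag2 lay below the array medians on all 8 arrays, which limits what can be said of small changes in their transcripts.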

Other observations

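Among 10 basic helix-loop-helix regulators of muscle and their partners, Myod1, Myog and Myf6 were higher in the beating group and 7 did not pass the test. Myog, the factor that drives myoblast differentiation, was at 7.48, 8.18, 7.27 and 7.97 in the beating and 3.67, 4.03, 3.90 and 4.01 in the non-beating arrays. Myf5, an early myogenic factor, was at 5.04, 4.69, 3.69 and 4.09 in the beating arrays against 3.24 to 3.51. The difference of 1.01 did not pass the test over all clusters (adjusted p = 0.072). In the round pool Myf5 was at 5.94, above all 8 other arrays, as were 45.8% of all genes of 1 symbol. The inhibitors Id1, Id2 and Id3 and the partner proteins Tcf3, Tcf4 and Tcf12 did not pass the test. These genes share the arrays and groups of the Notch genes, and no relation between them was tested.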
